A study of Mus musculus with 6 samples.

Results

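Mouse CD4+ T cells, activated in culture and transduced with *Dyrk1a* shRNA were compared by RNAseq with cells that received control shRNA and no drug. A short hairpin RNA (shRNA) is processed in the cell into a small RNA that directs degradation of a matching mRNA, and a control shRNA matches no intended target. The comparison takes the 2 libraries labelled as *Dyrk1a* shRNA and the 2 labelled as scrambled control, 4 of the 6 libraries of the study, over all genes. Naive CD4+CD62L+ T cells were isolated with magnetic beads from spleens of Balb/c mice aged 12 weeks and activated on plates with antibodies to CD3 and CD28. Concentrated lentivirus with the shRNA was added after 24 hours in both groups, medium with IL-2 was fed 24 hours later, and cells were harvested 48 hours after that. The study's methods instead describe unpolarized (Th0) cultures, the condition used for this activation, as given no added IL-2. The remaining 2 libraries are control shRNA cells given 3.7 µM harmine, a small-molecule inhibitor of DYRK kinases. They enter here through the choice of genes tested, the scaling and the shared estimate of spread. No mutant allele is named for either group. The sources used here do not give which hairpin each library received or whether cells were selected for transduction. It is likewise not stated whether libraries 1 and 2 of a group came from separate cultures or animals, so the p-values below measure only the spread between these libraries.

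DYRK1A is a dual-specificity kinase, which phosphorylates itself on tyrosine during its synthesis and its substrates on serine and threonine. In lymphocytes it is best known for phosphorylating NFAT transcription factors, which calcineurin dephosphorylates on T cell receptor stimulation, and so returning them to the cytoplasm. It also phosphorylates LIN52, a step in assembly of the DREAM repressor complex of quiescent cells, and D-type cyclins, which are then degraded.

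The libraries were shallow and of unequal depth. The control libraries held 1743428 and 1096345 counts and the *Dyrk1a* shRNA libraries 2678872 and 3274050. Of 23420 genes in the table, 10607 had enough counts to be tested. The control libraries also differed from each other. The median absolute log2 difference over genes was 0.361 between the controls, 0.215 between the *Dyrk1a* shRNA libraries and 0.222 between the group means. A mean of 2 libraries varies less than 1 library, so the last value is not on the same footing. The *Dyrk1a* shRNA mean differed by 0.299 from control 1 and by 0.259 from control 2. *Cd4* was at 296 and 374 CPM (counts per 1000000 counts of the library, after TMM scaling) in the controls and 382 and 345 with *Dyrk1a* shRNA. The 12 tested of 13 markers of CD4+ T cells summed to 3862 to 3931 CPM in the controls and 3794 to 3926 with *Dyrk1a* shRNA. Markers of other cells were low throughout, with 6 of 9 B cell, 3 of 11 myeloid, 6 of 10 CD8 T and NK cell and 3 of 12 erythroid cell and platelet markers at a level that could be tested. The respective sums over tested markers were 33.3 to 35.5, 12.7 to 35.2, 53.2 to 113 and 21.1 to 30.8 CPM in the controls, against 36.4 to 38.3, 13.9 to 21.8, 65.9 to 69.3 and 17.2 to 22.4 CPM with *Dyrk1a* shRNA. Of defining markers, *Itgax*, *Hba-a2* and *Hbb-b1* had no count in any of these 4 libraries. Other globin genes had a few: *Hba-a1* and *Beta-s* had 3 counts each in control 1, and 3 and 2 in *Dyrk1a* shRNA 2. *Hbb-b2* had 1 count in each *Dyrk1a* shRNA library. In bulk RNA, fewer cells of a type and less RNA per cell cannot be told apart.

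*Dyrk1a* mRNA, the target of the shRNA, was not detectably lower in the libraries labelled as knockdown. The gene lies on chromosome 16 (positions 94570010 to 94695517, plus strand, GRCm38). It was measured at 58.4 and 82.7 CPM in the control libraries, from 93 and 98 counts, and at 60.2 and 61.9 CPM with *Dyrk1a* shRNA, from 157 and 210 counts. Both knockdown libraries thus fell between the 2 controls, and the groups overlapped. The log2 fold change of *Dyrk1a* shRNA over control was -0.19 with a standard error (SE) of 0.21 (edgeR quasi-likelihood test, adjusted p = 0.835). On the linear scale the mean level with shRNA was 87.4% of control, with a 95% interval of 64.1 to 119%. The sign depended on 1 control library: the log2 fold change was 0.0677 without control 2 and -0.438 without control 1. Protein was not measured in these libraries, and every direction below is that of the libraries labelled *Dyrk1a* shRNA.

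**Figure D1:**
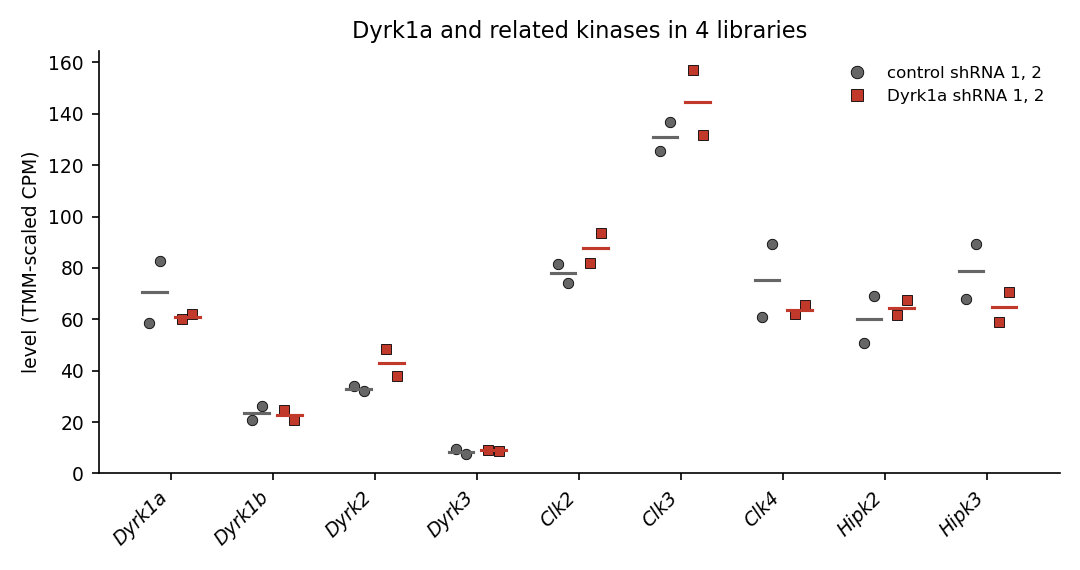
Levels of *Dyrk1a* and 8 related kinases in the 2 control shRNA libraries (circles) and the 2 *Dyrk1a* shRNA libraries (squares), in TMM-scaled CPM, with the mean of each group as a line. Both *Dyrk1a* values with shRNA, 60.2 and 61.9 CPM, lie between the control values of 58.4 and 82.7 CPM.

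No relative of *Dyrk1a* passed the test either. Of the 13 DYRK, CLK and HIPK kinases, 11 were tested, 5 were above 0 and 6 below, and none reached an unadjusted p under 0.05 in edgeR. Their log2 fold changes ran from -0.26 to 0.38. *Dyrk1b*, the closest paralog, was at 20.7 and 26.2 CPM in the controls and 24.5 and 20.6 with shRNA. *Dyrk2*, a kinase that marks proteins for ubiquitination, was at 33.9 and 32.1 CPM in the controls and 48.3 and 38.0 with shRNA (log2 fold change 0.38, SE 0.24). *Dyrk2* and *Clk2*, at 81.6 and 74.3 against 82.0 and 93.7 CPM, were the 2 members whose groups did not overlap, both higher with shRNA, and at 18.2% of the list this share was near that of all genes (18.5%). *Clk1*, which phosphorylates SR splicing factors, overlapped at 276 and 373 CPM in the controls and 340 and 288 with shRNA.

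Across all genes, 2 of the 10607 tested passed at an adjusted p under 0.05 (0.0189%), 1 higher and 1 lower with *Dyrk1a* shRNA (0.00943% each). At an unadjusted p under 0.05 there were 816 genes (7.69%), of which 329 (3.1%) were higher and 487 (4.59%) lower. These shares varied with GC content and transcript length, with values given further below. The groups did not overlap for 3752 genes (35.4%), 1957 (18.5%) higher and 1795 (16.9%) lower. Regardless of any test, 51.7% of genes were below 0 on the log2 scale. The 95% interval of a log2 fold change, taken gene by gene without adjustment, reached a median of 0.568 to either side. Smaller changes were mostly not detectable with these libraries. Adjustment over all genes raised the limit further: *Mxd4*, at a log2 fold change of 1.84, did not pass. DESeq2's Wald test called 3 genes. The number of calls rested on control 2: without that library, 438 genes passed, 47 higher and 391 lower, whereas leaving out any other library gave 1 to 5 calls.

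**Figure D2:**
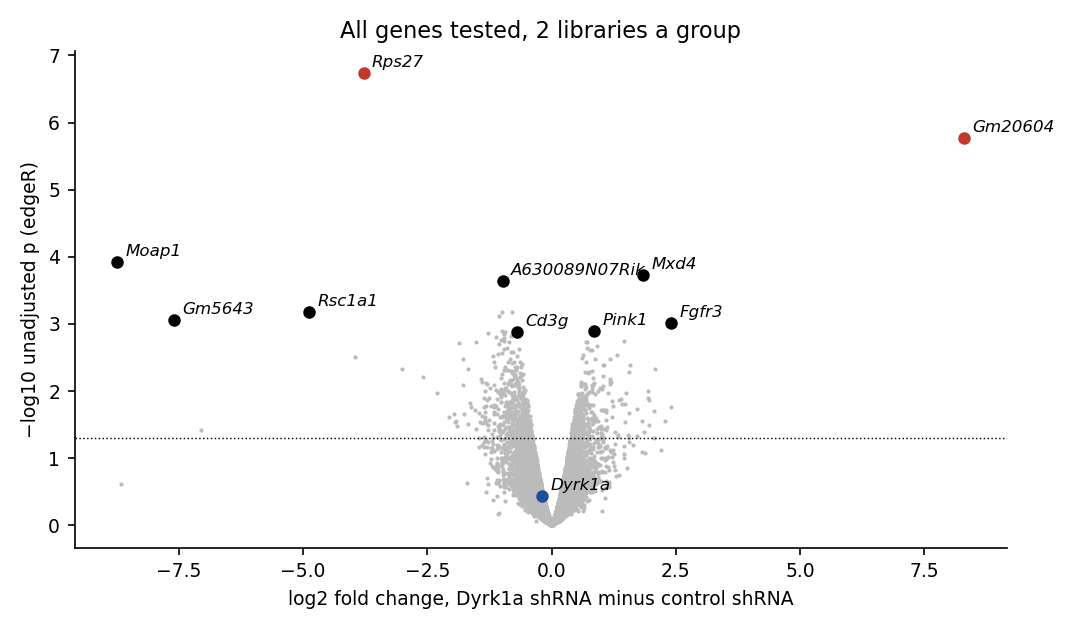
Log2 fold change of *Dyrk1a* shRNA over control shRNA (x axis) against the negative log10 of the unadjusted edgeR p (y axis) for the 10607 genes tested, with a dotted line at an unadjusted value of 0.05. The 2 genes past the adjusted threshold, *Rps27* and *Gm20604*, are in red, *Dyrk1a* is in blue near 0, and the horizontal position of genes with no count in a group depends on the prior count.

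Both genes past the threshold share sequence with another gene. *Rps27*, which encodes a protein of the small ribosomal subunit, lies on chromosome 3 (90212522 to 90213651, minus strand). It was at 196 and 252 CPM in the controls against 21.5 and 11.5 with *Dyrk1a* shRNA. Both shRNA libraries were far below both controls, and the gene fell by 3.79 on the log2 scale (SE 0.35, edgeR, adjusted p = 0.00196). *Gm9846* is an annotated copy of *Rps27* with no introns on chromosome 9 (114982366 to 114982739, minus strand). Its transcript aligned to *Rps27* with 100% identity over 341 bases, and the coding sequences of both, of 255 bases, had 0 mismatches. The coding sequence (GENCODE M21, GRCm38, with start and stop codon in capitals) is shown because a read that lies wholly inside it matches both genes.

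*Rps27* and *Gm9846*: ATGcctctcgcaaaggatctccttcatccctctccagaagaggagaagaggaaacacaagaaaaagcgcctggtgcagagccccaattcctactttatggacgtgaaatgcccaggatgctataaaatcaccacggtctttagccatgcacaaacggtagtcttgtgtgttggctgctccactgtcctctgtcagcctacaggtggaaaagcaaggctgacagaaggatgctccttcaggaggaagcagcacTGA

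Most counts of the shared sequence were assigned to the copy. *Gm9846* was at 2546 and 685 CPM in the controls against 1261 and 1421 with shRNA, so that the shRNA libraries lay between the controls. Summed over *Rps27* and *Gm9846*, the levels were 2742 and 937 CPM in the controls and 1282 and 1433 with shRNA. The groups overlapped for the sum, and its log2 fold change was -0.44 (SE 0.39, edgeR, adjusted p = 0.785). *Rps27* alone also lost its call when trends with transcript length and GC content were removed from each library (log2 fold change -3.56, adjusted p = 0.877).

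The gene model *Gm20604* on chromosome 12 (102741732 to 102758672, minus strand) spans *Moap1* (102742230 to 102743661, same strand), which encodes a BAX-binding regulator of apoptosis, and shares its sequence. *Gm20604* had no count in either control and 34 and 56 counts with *Dyrk1a* shRNA, or 13.03 and 16.5 CPM. It rose at least 13.9-fold, taken over a floor of 3 counts for the control group (edgeR, adjusted p = 0.00905). *Moap1* was the reverse, with 39 and 18 counts (24.5 and 15.2 CPM) in the controls and none with shRNA, at least 41.1-fold lower (adjusted p = 0.426). The sum of *Moap1* and *Gm20604* was 24.5 and 15.2 CPM in the controls against 13.02 and 16.5 with shRNA. For this sum the groups overlapped, and the log2 fold change was -0.44 (SE 0.31, adjusted p = 0.747). *Gm20604* also lost its call under 6 of the other settings, given with the processing choices.

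The same held for other genes with a near-identical or overlapping partner among those with the smallest p. *Rsc1a1*, which lies within *Ddi2* on the same strand of chromosome 4, was at 9.42 and 13.5 CPM in the controls against 0.766 and 0 with shRNA. *Ddi2*, a protease of the DNA damage-inducible 1 family, had 28.3 and 27.0 CPM in the controls, then 46.8 and 50.1 with shRNA (log2 fold change 0.81, SE 0.23, adjusted p = 0.612). Their sum was 37.7 and 40.5 CPM in the controls and 47.5 and 50.1 with shRNA, which did not overlap but did not pass (log2 fold change 0.33, SE 0.21, adjusted p = 0.734).

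*Gm5643*, a copy of the splicing regulator *Hnrnpa1* on the X chromosome, was at 87.3 and 59.1 CPM in the controls and 0 and 0.590 with shRNA (adjusted p = 0.612), and it was the additional gene called by DESeq2. A further copy, *Gm10052*, had no count in control 1 but 353 CPM in control 2 and 363 and 336 with shRNA. *Hnrnpa1* itself was at 717 and 394 against 607 and 519 CPM. Summed over *Gm5643*, *Hnrnpa1* and *Gm10052*, the controls reached 804 and 806 and the shRNA libraries 969 and 856 CPM (log2 fold change 0.18, SE 0.23, adjusted p = 0.877). The direction of *Gm5643*, *Rsc1a1* and *Gm20604* each turned in the sum.

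A pair of further cases had the same feature. *Gm12669*, a copy of the glutaredoxin *Glrx3*, was higher with shRNA at 48.3 and 47.2 CPM against 28.3 and 22.0 (log2 fold change 0.91, SE 0.23, adjusted p = 0.612), and with *Glrx3* added the log2 fold change was 0.09. *Rpl34*, a large-subunit ribosomal protein gene, was at 852 and 294 CPM in the controls and 194 and 207 with shRNA (log2 fold change -1.52, SE 0.38). With its copy *Rpl34-ps1* added, the log2 fold change was -0.30. *Dynlt1a* and *Rnaset2b*, each with a near-identical neighbour, had no count with shRNA and 56 and 18 counts over the controls, all of them in control 1.

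**Figure D3:**
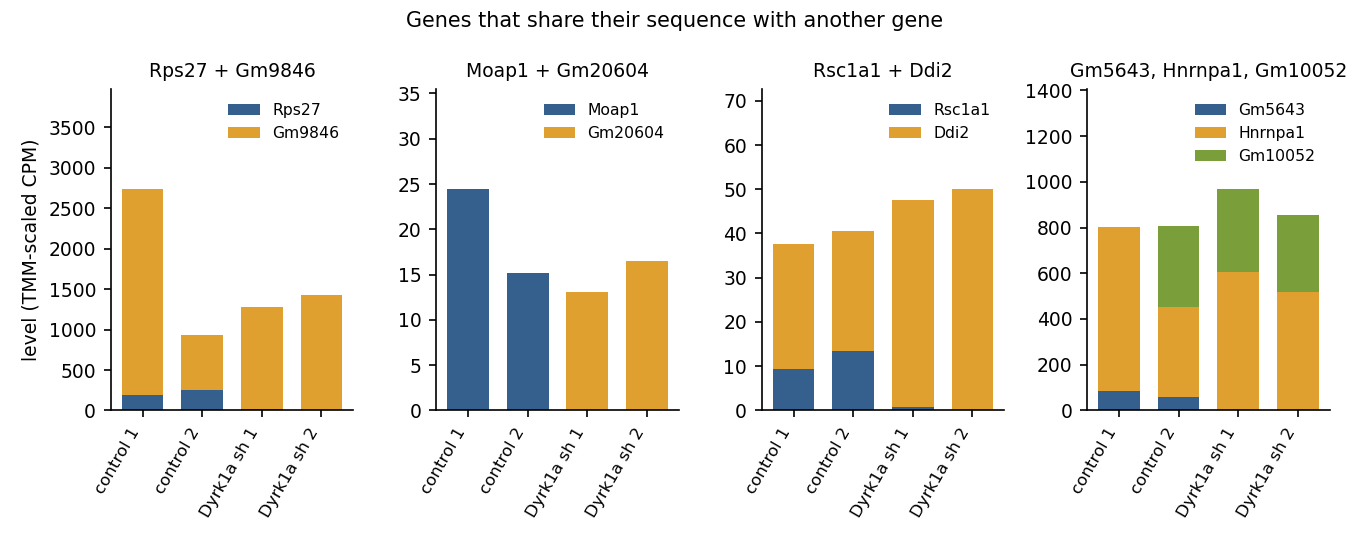
Levels in TMM-scaled CPM of 4 sets of genes that share sequence, stacked by gene, in control libraries 1 and 2 and *Dyrk1a* shRNA libraries 1 and 2. *Moap1*, *Rsc1a1* and *Gm5643* are present in both controls and nearly absent with shRNA. *Rps27* is lower with shRNA, at 21.5 and 11.5 CPM. The summed bars of both groups overlap for *Rps27* with *Gm9846* and for *Moap1* with *Gm20604*.

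Among genes without such a partner, the smallest p in the direction higher with *Dyrk1a* shRNA was that of *Mxd4*, which encodes a partner of MAX that opposes MYC. It was at 7.53 and 6.75 CPM in the controls, from 12 and 8 counts, and at 32.2 and 20.1 CPM with shRNA, from 84 and 68 counts. Both shRNA libraries were above both controls, with a log2 fold change of 1.84 (SE 0.38, edgeR, unadjusted p = 0.000187, adjusted p = 0.487). *Fgfr3*, a fibroblast growth factor receptor, was low in all libraries, at 1.26 and 1.69 CPM in the controls and 7.66 and 7.96 with shRNA (log2 fold change 2.40, SE 0.60). *Pink1*, the kinase that marks damaged mitochondria for removal, was at 29.5 and 27.0 CPM in the controls and 50.2 and 52.5 with shRNA (0.86, SE 0.22). *Nkain1*, encoding a protein that interacts with the sodium pump, was at 8.79 and 10.1 against 34.5 and 17.7 CPM (log2 fold change 1.449). *Nup62*, a protein of the nuclear pore channel, was at 57.8 and 54.0 against 91.2 and 92.9 CPM (0.72), and *Chtf8*, a clamp loader subunit used in sister chromatid cohesion, at 81.0 and 96.2 against 144 and 141 CPM (0.69). Both overlap genes on the opposite strand, *Nup62* also *Il4i1* on its own, and reads of overlapping genes cannot be told apart where strand is not marked. *Mapkbp1*, a scaffold of JNK signalling, was at 24.5 and 18.6 against 44.5 and 38.3 CPM (0.92), and the class IIa histone deacetylase *Hdac5* at 79.7 and 93.7 against 156 and 127 CPM (0.71). Every adjusted p from *Fgfr3* to *Hdac5* was 0.612. None of these genes changed sign when any 1 library was left out.

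In the lower direction, *A630089N07Rik*, a transcript on chromosome 16 to which no role is assigned here, had the smallest p outside the shared sequences. It was at 76.6 and 89.5 CPM in the controls and 42.5 and 41.3 with shRNA (log2 fold change -0.98, SE 0.21, edgeR, unadjusted p = 0.00023, adjusted p = 0.487). The adjusted p of the genes that follow was 0.612 each. *Cd3g*, the gamma chain of the CD3 signalling complex, was at 314 and 265 CPM in the controls and 173 and 185 with shRNA (-0.70, SE 0.18). Both shRNA libraries were below both controls, although *Cd3e*, another chain of that complex, overlapped at 203 and 263 against 286 and 262 CPM. *Sep15*, a selenoprotein of the endoplasmic reticulum, was at 213 and 163 against 111 and 105 CPM (-0.81, SE 0.19). *Snrnp27*, a protein of the spliceosomal tri-snRNP, was at 68.4 and 41.4 against 25.3 and 28.0 CPM (-1.06, SE 0.26), and *Mpc2*, a subunit of the mitochondrial pyruvate carrier, at 52.7 and 40.5 against 21.1 and 27.7 CPM (-0.94, SE 0.24). *AA467197*, host of the microRNA *Mir147*, was at 127 and 87.8 against 42.5 and 65.7 CPM (-0.99). *Gm13546* runs antisense to *Cytip*, a regulator of cytohesin in lymphocyte adhesion, and was at 41.4 and 30.4 against 18.4 and 18.0 CPM (-0.998), while *Cytip* itself had a log2 fold change of 0.0018.

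**Figure D4:**
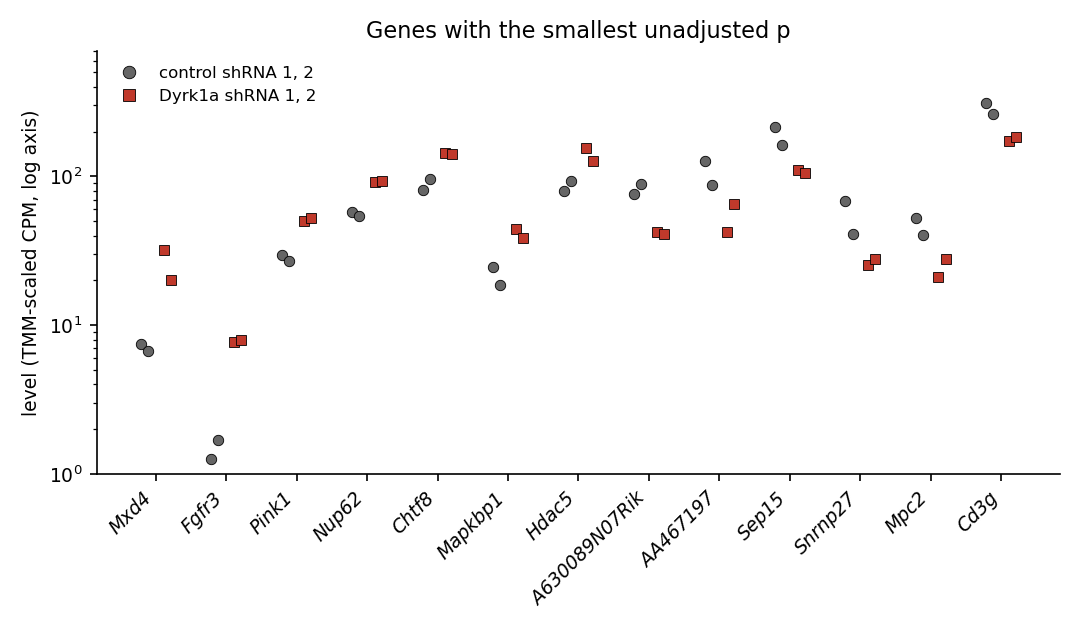
Levels in TMM-scaled CPM (log axis) in the 2 control shRNA libraries (circles) and the 2 *Dyrk1a* shRNA libraries (squares) of 13 genes. They were picked from the genes named in the text with a small unadjusted p and groups that do not overlap. *AA467197* contains the sequence of *Mir147*, and *Nkain1* and *Gm13546* are not shown. For each gene both shRNA values lie on 1 side of both control values, for *Mxd4* at 32.2 and 20.1 against 7.53 and 6.75 CPM, and none passed after adjustment.

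The gene lists below were assembled from textbook roles, with earlier results of these data known. Their counts are set against all genes tested, of which 48.3% were above 0 (median -0.01 on the log2 scale). They are not set against genes of like GC content or length. Outside *Rps27*, no member of any list passed after adjustment in edgeR, so that names and values are given as measured differences. Median log2 fold changes close to 0 (of the kinase, NFAT, receptor, receptor response, G1, mitosis, MYC network, naive, unfolded protein and BCL2 lists) changed sign with 1 library left out. *Ccnd2*, *Ccnd3*, *Nfatc3*, *E2f5*, *Lin37*, *Gsk3a*, *Bhlhe40*, *Ppp1r15a* and *Psma4* overlap a gene on the opposite strand, *Tgif2* shares sequence with the overlapping *5430405H02Rik*, *Smc4*, *Tkt* and *Pdia4* overlap microRNA genes, and *Hnrnpa3* and *Mrpl32* have a near-identical copy, so that their counts are less certain.

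Among 28 partners and substrates of DYRK1A, 26 were tested, 15 were above 0 and 11 below, and 0 reached an unadjusted p under 0.05 in edgeR. The median log2 fold change was 0.08, and -0.0084 without control 1. *Ccnd2* and *Ccnd3*, the D-type cyclins that start the cell cycle in lymphocytes, were both slightly higher with shRNA. *Ccnd2* was at 486 and 418 CPM in the controls and 553 and 518 with shRNA (log2 fold change 0.24, 95% interval -0.18 to 0.67), and *Ccnd3* at 485 and 424 against 531 and 534 CPM (0.23, interval -0.19 to 0.65). *Cdkn1b*, the inhibitor p27, overlapped at 112 and 53.2 against 67.8 and 54.2 CPM. *Sirt1*, a deacetylase that DYRK1A phosphorylates, was at 16.3 and 12.7 against 10.4 and 10.3 CPM (-0.50, interval -1.22 to 0.21).

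No difference was detected in the NFAT genes, whose proteins DYRK1A phosphorylates. *Nfatc1* was at 80.3 and 104 CPM in the controls and 100.4 and 99.1 with shRNA (log2 fold change 0.12, 95% interval -0.29 to 0.54), *Nfatc2* at 119 and 166 against 117 and 144 CPM (-0.12, interval -0.57 to 0.34) and *Nfatc3* at 149 and 148 against 149 and 173 CPM (0.12, interval -0.26 to 0.50). The groups overlapped for all 3. *Rcan1*, an NFAT target that inhibits calcineurin, was at 6.91 and 5.07 against 8.05 and 8.55 CPM (0.45, SE 0.42). Of 26 NFAT, calcineurin and calcium entry genes tested, 12 were above 0 and the median was -0.02. Of these, 11.5% were at an unadjusted p under 0.05, against 7.69% of all genes. *Calm2*, a gene for the calmodulin that activates calcineurin, was lower with shRNA at 242 and 247 against 205 and 164 CPM (-0.41, SE 0.18). *Gsk3a*, a kinase that also phosphorylates NFAT, was higher at 84.1 and 100.4 against 125 and 130 CPM (0.47, SE 0.19).

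All 13 DREAM and MuvB genes were tested, with 7 above 0, a median of 0.14 and 0 at an unadjusted p under 0.05 in edgeR. The groups did not overlap for 6 members that were higher and 1 that was lower (46.2% and 7.69% of the list, against 18.5% and 16.9% of all genes). *E2f4*, the repressor E2F of the complex, was at 134 and 137 CPM in the controls and 161 and 174 with shRNA (0.31, SE 0.18), and *E2f5* at 6.91 and 7.597 against 13.8 and 11.5 CPM (0.80, SE 0.41). *Lin37*, needed for DREAM repression, was lower at 33.3 and 27.0 against 23.0 and 21.8 CPM (-0.44, SE 0.26), and *Lin52*, the subunit that DYRK1A phosphorylates, overlapped at 12.6 and 17.7 against 12.3 and 12.7 CPM. The median of the list was -0.0224 without control 1 and -0.00597 with length and GC trends removed.

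Of 41 genes of DNA replication, 24 were above 0, with a median of 0.17 that ran from 0.1 to 0.234 with 1 library left out. The groups did not overlap for 16 members that were higher and 8 that were lower (39.0% and 19.5% of the list, against 18.5% and 16.9% of all genes). *Pold1*, the catalytic subunit of DNA polymerase delta, was at 25.1 and 18.6 CPM in the controls and 41.8 and 36.3 with shRNA (0.81, SE 0.25). *Mcm5*, a subunit of the replicative helicase, was at 35.2 and 38.8 against 51.3 and 51.9 CPM (0.49, SE 0.21), and *Chaf1a*, a histone chaperone whose gene overlaps *Ubxn6*, at 25.1 and 22.8 against 34.1 and 42.7 CPM (0.68, SE 0.24). *Rpa3*, a subunit of the single-strand binding complex, went the other way at 60.9 and 35.5 against 23.0 and 27.1 CPM (-0.96, SE 0.26). Of 34 genes of mitosis and cytokinesis, 17 were above 0 and 17 below, with a median of 0.01. *Cenpf*, a kinetochore protein, was at 50.2 and 52.3 against 32.6 and 34.8 CPM (-0.60, SE 0.23) and *Smc4*, a condensin subunit, at 168 and 129 against 106 and 95.2 CPM (-0.57, SE 0.22). Among 18 G1 regulators tested, 8 were above 0, and the G1 kinase *Cdk6* was at 35.2 and 49.8 against 65.1 and 53.4 CPM (0.49, SE 0.23). In the MYC, MAX and MXD network 3 of 10 tested genes were above 0. There, *Mxd4* was the single member at an unadjusted p under 0.05 in edgeR (10.0% of those tested, against 3.1% of all genes higher).

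The T cell receptor complex and its proximal signalling genes were all tested, 21 of 35 above 0 with a median of 0.05. Besides *Cd3g*, 2 members reached an unadjusted p under 0.05 in edgeR. Both were higher with shRNA (5.71% of the list, against 3.1% of all genes in that direction). *Zap70*, the kinase recruited to the phosphorylated receptor, was at 324 and 377 CPM in the controls and 499.6 and 433 with shRNA (0.41, SE 0.19), and *Dgkz*, a lipid kinase that limits receptor signals, at 224 and 215 against 283 and 300 CPM (0.41, SE 0.18). Among 26 receptor response genes tested, 10 were above 0. The costimulatory receptor *Icos* was lower at 451 and 523 against 343 and 323 CPM (-0.55, SE 0.20), and the transcription factor *Bhlhe40* higher at 229 and 262 against 399 and 304 CPM (0.52, SE 0.20).

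Genes tied to T cell subsets gave no called difference. *Foxp3*, the factor that specifies regulatory T cells (Treg), was below the level tested, with 6 and 2 counts in the controls and 6 and 5 with shRNA, and *Ifng* had 0 and 1 counts in the controls and 1 and 0 with shRNA. Of 21 Treg-associated genes tested, 9 were above 0 with a median of -0.06, or -0.104 without control 2 and -0.135 without *Dyrk1a* shRNA 2. *Icos* and *Socs2* were the members at an unadjusted p under 0.05, both lower (9.52% of the list, against 4.59% of all genes in that direction). Of 16 Th17-associated genes, 6 were above 0 and 0 reached that p in edgeR. Their median was -0.09 but -0.462 without control 1 and 0.348 without control 2. *Il17a*, the cytokine of these cells, overlapped at 5.02 and 16.9 CPM in the controls and 9.20 and 4.72 with shRNA. *Bach2*, a repressor of effector differentiation, was at 185 and 255 against 194 and 196 CPM (-0.17, 95% interval -0.58 to 0.24). Of 20 naive and quiescence genes, 7 were above 0 with a median of -0.05.

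Cytokine receptor and STAT genes were above 0 for 24 of 34, with a median of 0.11 that was 0.00325 without control 1. The interleukin-7 receptor gene *Il7r* was lower at 58.4 and 80.2 CPM in the controls and 38.3 and 43.6 with shRNA (-0.74, SE 0.23). *Socs2*, a feedback inhibitor of cytokine signalling, was at 480.2 and 356 against 176 and 323 CPM (-0.75, SE 0.26). *Stat5a*, which transmits the IL-2 signal, was at 86.6 and 144 against 210.4 and 142 CPM (0.62, SE 0.25), with overlap between groups, and it has a near-identical paralog, *Stat5b*. In TGF-beta signalling 14 of 19 genes tested were above 0 with a median of 0.13, or 0.0269 without control 1. Its 3 members at an unadjusted p under 0.05 were all higher with shRNA (15.8% of the list, against 3.1% of all genes in that direction). They are *Tgif2*, a repressor of SMAD-driven transcription, at 26.4 and 27.9 against 41.4 and 37.4 CPM (0.54, SE 0.23), *Furin*, the protease that processes the TGF-beta precursor, at 35.8 and 57.4 against 69.0 and 62.5 CPM (0.52, SE 0.23), and the ubiquitin ligase *Smurf1* (0.46, SE 0.22). Of 27 interferon response genes tested, 8 were above 0 and the median was -0.17, or -0.094 without control 2, and *Ly6a*, a surface protein induced by interferon, was at 333 and 283 against 207 and 210 CPM (-0.57, SE 0.21).

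Glycolysis and pentose phosphate genes had a median of 0.29, with 22 of 30 above 0. The groups did not overlap for 13 members that were higher (43.3% of those tested, against 18.5% of all genes) and for 4 that were lower (13.3%, against 16.9%). *Gpi1*, which interconverts glucose and fructose phosphates, was at 1031 and 1024 CPM in the controls and 1578 and 1265 with shRNA (0.47, SE 0.25). *Tkt*, transketolase of the pentose phosphate pathway, was at 240 and 174 against 314 and 249 CPM (0.44, SE 0.20), while *Rpia*, which makes ribose phosphate, was lower at 10.7 and 16.04 against 6.90 and 7.66 CPM (-0.84, SE 0.38). The median stayed above 0 without any 1 of the 4 libraries, at 0.153 to 0.275, and was 0.112 with length and GC trends removed.

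Aminoacyl-tRNA synthetase genes were above 0 for 15 of 20 (median 0.10, but 0.199 without control 2 and 0.17 without *Dyrk1a* shRNA 2), with *Vars* at 144 and 158 against 225 and 194 CPM (0.48, SE 0.18). Genes of the unfolded protein and ATF4 response were above 0 for 18 of 26 (median 0.04), the 3 at an unadjusted p under 0.05 being *Ppp1r15a*, a phosphatase subunit that restores translation (0.53, SE 0.21), the mTORC1 inhibitor *Ddit4* (0.44, SE 0.20) and the chaperone *Pdia4* (0.48, SE 0.22), all higher with shRNA (11.5% of the list, against 3.1% of all genes in that direction). Autophagy genes were above 0 for 20 of 34 (median 0.07, but 0.0279 without control 1, 0.128 without control 2 and 0.041 without *Dyrk1a* shRNA 1). There, *Pink1* was higher and *Rb1cc1*, a subunit of the complex that starts autophagy, was lower at 39.5 and 62.5 against 23.0 and 31.0 CPM (-0.88, SE 0.26). Cholesterol and fatty acid synthesis genes (16 of 26 above 0), p53 targets (13 of 23) and BCL2 family genes (7 of 15) had 0 members at an unadjusted p under 0.05 in edgeR. In the RNA interference machinery, which processes shRNA, 8 of 14 genes were above 0 (median 0.08, or -0.115 without *Dyrk1a* shRNA 2), and *Prkra*, a partner of Dicer, was at 17.0 and 16.9 against 26.8 and 25.4 CPM (0.62, SE 0.27).

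Ribosomal protein, oxidative phosphorylation and proteasome genes have short transcripts (list medians of 906 to 1561 bases, against 3084 over all genes). Most members of these 4 lists had values below 0 with *Dyrk1a* shRNA, and in each the sign of the median turned without control 1. Of nuclear-encoded oxidative phosphorylation genes 67 of 77 tested were below 0 with a median of -0.44, of cytosolic ribosomal protein genes 74 of 79 with -0.37, of mitochondrial ribosomal protein genes 67 of 76 with -0.34, and of proteasome genes 36 of 48 with -0.19. Summed over tested members, cytosolic ribosomal protein genes were at 239600 and 113500 CPM in the controls and 153900 and 143500 with shRNA. The oxidative phosphorylation sums were 16330 and 8845 against 10660 and 9967 CPM. The shRNA libraries thus lay between the controls. Sums of myeloid and of CD8 T and NK cell markers were also highest in control 1, at 35.2 and 113 CPM, and their part in these differences was not tested. Without control 1 the medians were 0.21, 0.375, 0.0822 and 0.0668 in the same order, all above 0, and without control 2 they were -0.851, -0.873, -0.597 and -0.316.

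Of mitochondrial ribosomal protein genes, 14 were at an unadjusted p under 0.05, all lower (18.4% of the list, against 4.59% of all genes in that direction), but for 8 of them the groups overlapped. Both shRNA libraries were below both controls for 18.4% of this list and 2.53% of cytosolic ribosomal protein genes. For oxidative phosphorylation and proteasome genes the shares were 9.09% and 20.8%, against 16.9% of all genes. Of the 14 mitochondrial ribosomal protein genes, 6 were without overlap. Among these, *Mrpl15*, a large-subunit protein, was at 55.9 and 40.5 CPM in the controls and 27.2 and 30.4 with shRNA (-0.75, SE 0.23). *Mrpl32* was at 45.8 and 36.3 against 29.5 and 23.9 CPM (-0.64, SE 0.24). Of oxidative phosphorylation genes, 10 were lower and 1 higher at that p. In either direction this was 14.3% of those tested, against 7.69% of all genes. For 4 of the 10 lower genes the groups overlapped. *Ndufb3*, a subunit of complex I, was at 94.2 and 36.3 against 36.0 and 29.8 CPM (-1.03, SE 0.34), and *Cox7b*, a subunit of complex IV, at 239 and 98.8 against 93.1 and 92.6 CPM (-0.88, SE 0.31). For both, control 2 was close to the shRNA libraries. Of proteasome genes 5 were lower (10.4% of those tested, against 4.59% of all genes in that direction), and for 1 of them the groups overlapped. The core subunit *Psma4* was even in the controls, at 235 and 235 against 164 and 183 CPM (-0.43, SE 0.18). Among 30 SR protein and hnRNP genes, 20 were below 0 with a median of -0.15, or -0.0443 without control 2. The groups did not overlap for 14 that were lower and 3 that were higher (46.7% and 10% of those tested, against 16.9% and 18.5% of all genes). *Hnrnpa3* was at 119 and 122 against 90.0 and 80.5 CPM (-0.50, SE 0.18) and *Hnrnpul1* at 116 and 156 against 208 and 187 CPM (0.54, SE 0.21).

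Differences between the groups varied with transcript properties. Over 10500 genes with an annotated transcript, Spearman's rho of the log2 fold change with GC content was 0.34 and with transcript length 0.129. These are descriptions across genes, which share the 4 libraries. With genes split into 5 groups of like size, the group lowest in GC content had a median of -0.201 and the highest 0.159 on the log2 scale. This order held against each control: the lowest group was at -0.144 against control 1 and -0.215 against control 2, and the highest at 0.127 and 0.208. Between the *Dyrk1a* shRNA libraries the same medians were 0.0155 and -0.00426. At an unadjusted p under 0.05 in edgeR, 10.4% of genes in the lowest GC group were lower and 0.523% higher. In the highest GC group 1.19% were lower and 7.32% higher. The controls also differed along GC content, with medians of control 1 minus control 2 of -0.0856 in the lowest group and 0.0945 in the highest. For length the controls disagreed in direction. The group of shortest transcripts, to which most ribosomal and respiratory chain genes belong by their median lengths of 906 and 955 bases, was at -0.384 against control 1 and 0.109 against control 2. At an unadjusted p under 0.05 in edgeR, 9.83% of its genes were lower and 0.665% higher. SR protein and hnRNP genes had a median GC content of 44.1% and glycolysis genes of 53.5%, and the part of base composition in their differences was not tested beyond the removal of trends, after which the medians were -0.0629 and 0.112.

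**Figure D5:**
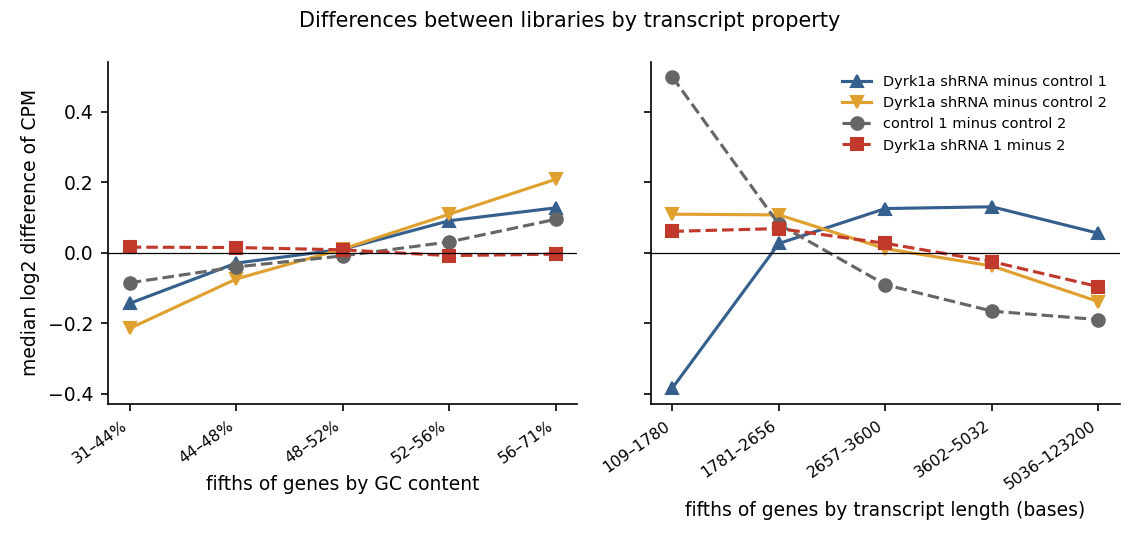
Median log2 difference of CPM between libraries in 5 groups of genes by GC content (left) and by transcript length (right). *Dyrk1a* shRNA differs from each control in the same direction along GC content, from -0.144 and -0.215 to 0.127 and 0.208. Control 1 minus control 2 runs from -0.0856 to 0.0945 along GC content. In the shortest genes *Dyrk1a* shRNA is at -0.384 against control 1 and 0.109 against control 2, and the controls differ by 0.498.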

How the data were processed

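Polyadenylated RNA was reverse transcribed from poly-dT primers, tagmented with Nextera and read on a MiSeq. The authors aligned reads to mm10 and deposited expected counts per gene from RSEM, without normalization. Tools named in the submitters' processing notes are DESeq, RSEM and TopHat2 (2.0.13). The RSEM version and annotation are not given in the sources used here, and no step that marks strand is described.

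After rounding, the expected counts were scaled by TMM, filtered with filterByExpr (minimum count 10) and fitted with edgeR 4.0.16 under R 4.3.3, as 3 group means over all 6 libraries. Two-sided quasi-likelihood tests (robust setting) were adjusted by Benjamini-Hochberg over all 10607 genes tested, with a threshold of 0.05. Each SE is the log2 fold change divided by the square root of F. The tests were also tested on simulated data, which held no length or GC trends between libraries and no shared sequence. Named genes are *Dyrk1a*, genes past the threshold, the 10 non-overlapping genes a direction with the smallest p, up to 4 members of each of 34 lists by smallest p, all members of the DYRK, DYRK1A partner and DREAM lists where of use, partners with shared or overlapping sequence, and *Foxp3*, *Il17a*, *Bach2* and *Ifng*. *Cd4* serves as a reference. Some genes that this rule takes are not reported here. Members and lists were chosen with earlier results of these data known. Of the gene symbols 98.3% matched GENCODE M21 (GRCm38), which gave positions, length and GC content, and near-identical transcripts were found with BLAST 2.17.0 (identity of at least 95% over at least 50% of the shorter transcript). Alternatives were other scaling, DESeq2 1.42.0, other filters, a replicate block, the pair alone, each library left out, removal of length and GC trends by splines, thinning and sums of copies.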

Additional observations from a re-analysis of the deposited data

How the results depend on the processing

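Against 2 genes past the threshold, 28 passed without a filter on low counts (4 higher, 24 lower) and 5 when only the 4 compared libraries were fitted. Leaving out 1 library gave 1 to 438. The count was 3 with library size alone and with DESeq2's Wald test, and 2 with DESeq2's size factors, with a minimum count of 50, after removal of length and GC trends and after thinning. Deviations from the group mean, matched by replicate number, correlated at 0.0196 between control and *Dyrk1a* shRNA. The values were 0.12 between control and harmine and 0.24 between harmine and *Dyrk1a* shRNA. Whether replicate numbers pair the samples is not stated in the sources used here and cannot be told from these values. With the replicate number as a block, 2 genes passed, 0 higher and 2 lower. *Gm20604* lost its call in 6 settings: minimum count of 50 (adjusted p = 0.0597), replicate block (0.0515), thinning (0.166), and without control 1 (0.125), *Dyrk1a* shRNA 1 (0.095) or *Dyrk1a* shRNA 2 (0.162). *Dyrk1a* ran from -0.438 to 0.0677 with 1 library left out, and the other settings kept it below 0 and uncalled. Log2 fold changes turned in sums of copies for *Gm20604* (-0.444), *Rsc1a1* (0.325) and *Gm5643* (0.18). With length and GC trends removed, *Gm9846* (0.601), *Clk1* (0.211) and *Nfatc1* (-0.023) turned, and after thinning *Lin52* (0.121) and *Nfatc1* (-0.0262). With 1 library left out, these uncalled genes turned in sign, with ranges of log2 fold changes of -0.922 to 0.969 for *Gm9846*, -1.33 to 0.147 for *Rps27l*, -0.22 to 0.119 for *Dyrk1b*, -0.25 to 0.19 for *Clk1*, -0.877 to 0.191 for *Cdkn1b*, -0.0585 to 0.314 for *Nfatc1*, -0.346 to 0.144 for *Nfatc2*, -0.00372 to 0.22 for *Nfatc3*, -1.31 to 0.431 for *Il17a* and -0.386 to 0.0773 for *Bach2*. The cause was not tested. Among all values of named genes under the alternatives, 1234 kept direction and side of the threshold, and 55 passed where the reported fit did not, 28 of them without control 2. With 1 library left in a group, that library is assumed to vary like the others. Depth of 1096345 to 3274050 counts and 2 libraries a group limit what could be called.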
